A study of Rattus norvegicus with 40 samples.

Results

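The arrays described here are 10 of 40 from rat cerebral cortex: Sham 6 to Sham 10 set against Sham 1 to Sham 5, with 5 arrays on each side. They were picked out by their labels and numbers, as the lowest-numbered samples of the sham group, with earlier results of these data known. All 10 are labelled as normoxic sham samples, with no hypoxic preconditioning, so this is a comparison of normal-oxygen cortex with itself at different sample numbers. The other arrays are Sham 11 to Sham 20 and PC 1 to PC 20, of which the PC arrays come from hypoxic preconditioning. The labels used here give neither strain nor age, nor what the number runs stand for, nor the oxygen level and duration of any exposure. They do not state that each array is its own animal, so a p-value here reflects array-to-array spread that could be partly technical. As a check of the tissue, 17 of 18 listed neuron markers were measured, with a mean level of 9.34 (log2 intensity) on Sham 6 to 10 and 9.31 on Sham 1 to 5. These markers show neurons and not the brain region. The 16 measured markers of striatum, hippocampus and thalamus had a mean level of 7.10 on Sham 6 to 10 and 7.10 on Sham 1 to 5. Choroid plexus markers, which varied between arrays, and blood markers are given below.

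Cortex after birth is a tissue in transition. Young neurons lose the proteins of growing axons, such as doublecortin and guidance receptors, while astrocytes, oligodendrocytes and microglia mature and energy use shifts to mitochondrial respiration. Many cortical transcripts also follow the time of day, handling stress and neuronal activity. The endoplasmic reticulum (ER), where secreted and membrane proteins fold, has its own programme: when folding is strained, the factors ATF6, XBP1 and ATF4 raise chaperones such as Hspa5 (BiP) and amino acid transporters. Gene lists for each of these processes were examined below. The labels give no age, so whether these samples come from cortex in that transition is not known.

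Sex, actin ratio and the share of dim probe sets did not separate the 2 groups, whereas the second principal component of the sham arrays, with 8.79% of their variance, did. On that component Sham 6 to Sham 10 lay between -19.9 and -2.84, and Sham 1 to Sham 5 between -0.237 and 16.7. Sham 6 to Sham 10 and Sham 1 to Sham 5 each held 2 samples with the male transcript Eif2s3y above the female transcript Xist, and 3 with the reverse. Actin 3' to 5' signal ratios lay between 1.59 and 1.71 on Sham 6 to Sham 10 and between 1.51 and 1.90 on Sham 1 to Sham 5 (two-sided exact permutation p = 0.571, smallest possible 0.00794). Probe sets at the intensity floor made up 23.7% to 25.4% of each array on Sham 6 to Sham 10 and 24.1% to 26.6% on Sham 1 to Sham 5 (exact permutation p = 0.119). Pearson's r between any pair of the 10 arrays was between 0.971 and 0.983 across the kept probe sets. On the first principal component, with 17.1% of the variance, Sham 6 to Sham 10 lay between -11.6 and 1.81. Sham 1 to Sham 5 lay between -20.8 and -4.18 on it, with overlap. Elsewhere in the series, Sham 17 to Sham 20 stood apart from the other sham arrays on that component, at 16.4 to 25.4. Sham 16, at 6.51, lay next to Sham 12 at 5.13. PC 5 and PC 6 had the lowest median log2 intensity of the 40 arrays, at 5.59 and 5.53, and neither is among the 10. Within the 10, Sham 1 and Sham 2 lay lowest on the first component, at -19.4 and -20.8, with Sham 7 next at -11.6. Without Sham 16 to 20, which share the estimate of spread, 53 of the 252 genes called below lost their call.

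Sham 6 to Sham 10 differed from Sham 1 to Sham 5 in a small share of the transcriptome, and by small amounts. Of the lists described below, 4 of 32 unfolded protein and amino acid response genes and 4 of 16 astrocyte markers rose, and 3 of 29 immature neuron genes fell. Of 18625 probe sets tested, 167 were called higher (0.897%) and 254 lower (1.36%), where a call is an adjusted p under 0.05 by limma with Benjamini-Hochberg adjustment. Differences are given on the log2 intensity scale as Sham 6 to 10 minus Sham 1 to 5. In 331 of the 421 called probe sets the difference was under 0.5, and in 7 it was over 1. The calls cover 103 named genes that rose and 149 that fell, of 10304 measured. Of those 10304, 5013 differences were on the higher side and 5291 on the lower side, which is the background for the list counts below. All 5 values of one group lay above all 5 of the other for 304 probe sets higher (1.63%) and 438 lower (2.35%) in Sham 6 to 10, and 294 of the called probe sets were among them. The number of calls depended on single arrays: it was 154 without Sham 10, 180 without Sham 6, 191 without Sham 2, 227 without Sham 1, 249 without Sham 3, 250 without Sham 5 and 274 without Sham 8. Of the 252 called genes, 61 stayed called whichever 1 of the 10 arrays was left out, 22 higher and 39 lower.

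**Figure D1:**
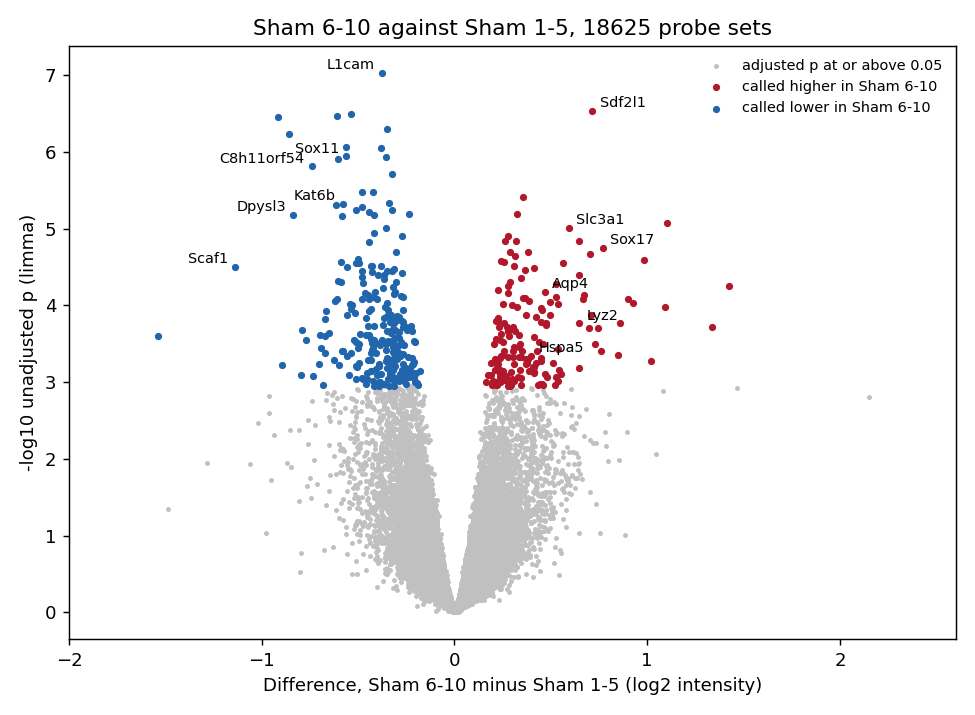
Difference between Sham 6-10 and Sham 1-5 (x axis, log2 intensity) against -log10 of the unadjusted limma p (y axis) for the 18625 probe sets tested, with called probe sets in red (higher, 167) and blue (lower, 254). Most called points lie within 0.5 of zero on either side, and the labelled genes are ones described in the text.

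Among genes that help proteins fold in the ER, Sdf2l1, Hspa5, Creld2 and Pdia6 rose in Sham 6 to 10. Sdf2l1, an ER protein that works with Hspa5 and its co-chaperones, read 255.0, 242.5, 215.9, 251.1 and 228.0 intensity units on Sham 6 to Sham 10, against 157.4, 179.5, 115.1, 148.9 and 132.3 on Sham 1 to Sham 5. The groups did not overlap, and the difference was 0.72 ± 0.10 (SE; n = 5 each; limma adjusted p = 0.0013). Its call held whichever array was left out, with a highest adjusted p of 0.0047. Hspa5, the main Hsp70 chaperone of the ER lumen, read 3576.5, 2857.8, 2582.6, 3233.5 and 3722.9 on Sham 6 to Sham 10, against 2356.9, 3224.6, 2126.7, 2478.7 and 1986.9 on Sham 1 to Sham 5. Sham 2 lay inside the range of Sham 6 to 10, and the difference was 0.40 ± 0.10 (limma adjusted p = 0.034). Creld2, a secreted protein induced by ER stress, was higher by 0.55 ± 0.14 (limma adjusted p = 0.044), with 290.9 to 456.9 on Sham 6 to 10 and 183.1 to 326.4 on Sham 1 to 5. Pdia6, a disulfide isomerase, was higher by 0.21 ± 0.05 (limma adjusted p = 0.041) with no overlap, at 1789.0 to 1948.5 on Sham 6 to 10 and 1528.2 to 1718.6 on Sham 1 to 5. These 3 calls were less secure than that of Sdf2l1. The Hspa5 call was lost without Sham 1, 3, 5, 6, 9 or 10 (adjusted p up to 0.103), the Creld2 call without any array but Sham 2 or 4 (up to 0.103), and the Pdia6 call without any but Sham 2 or 9 (up to 0.083). All 3 were also lost with median centring, with no filter on dim probe sets, with no mean trend and with the 10 arrays fitted alone. Without Sham 16 to 20 the limma adjusted p was 0.053 for Hspa5 and 0.052 for Creld2, and with all 40 arrays in the fit Creld2 (0.071) and Pdia6 (0.21) did not pass. The Sdf2l1 call held under every alternative run.

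The list of unfolded protein and amino acid response genes had 32 measured members, of which 4 rose, 1 fell and 27 did not pass, with 22 differences above zero and a median of 0.13. Over all 10304 named genes the median was -0.0047. Across the alternative settings, 1 to 5 list members were called higher. The member that fell was Slc7a5, a large neutral amino acid transporter, at 238.7 to 288.8 on Sham 6 to 10 and 311.9 to 340.6 on Sham 1 to 5 (-0.28 ± 0.06, limma adjusted p = 0.015), a call lost with the 10 arrays fitted alone (0.075). Among chaperones and their partners that did not pass, Dnajc3 was at 0.40 (adjusted p = 0.089), Manf at 0.28 (0.062), Sel1l at 0.29 (0.11) and Hsp90b1 at 0.17 (0.12). Other ER genes that did not pass were Dnajb9 at 0.26, Dnajb11 at 0.22, Pdia4 at 0.16 and Calr at 0.05. Edem1 was at 0.04, Canx at 0.002, Herpud1 at -0.03 and Hyou1 at -0.07. Among genes of the ATF4 branch, to which Slc7a5 also belongs, Mthfd2 was at 0.32, Slc7a11 at 0.15, Psat1 at 0.14, Sesn2 at 0.12, Asns at 0.03, Atf4 at -0.01, Chac1 at -0.02, Atf5 at -0.08 and Shmt2 at -0.12, none of which passed. Ddit3, the transcription factor CHOP, was at 0.43 without passing (adjusted p = 0.14), although its groups did not overlap.

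Several promoters of this list carry the ER stress response element, a motif bound by ATF6 together with NF-Y, and 3 of them are shown because they hold it and stand among the larger differences. The motif searched on both strands was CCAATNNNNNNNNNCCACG, in the 300 bases from 250 before to 50 after each start in RefSeq's GRCr8 annotation, and no other motif was searched. The 250 bases before the start are given 5' to 3' on the gene's strand, with the match in capitals, for Hspa5 at chr3:38452766-38453015, Creld2 at chr7:121789134-121789383 and Dnajc3 at chr15:102432417-102432666, all on the plus strand.
Hspa5: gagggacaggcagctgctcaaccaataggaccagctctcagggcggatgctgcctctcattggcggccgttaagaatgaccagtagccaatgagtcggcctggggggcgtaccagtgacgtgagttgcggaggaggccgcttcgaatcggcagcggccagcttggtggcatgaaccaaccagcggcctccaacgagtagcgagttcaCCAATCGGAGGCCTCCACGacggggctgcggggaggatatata
Creld2: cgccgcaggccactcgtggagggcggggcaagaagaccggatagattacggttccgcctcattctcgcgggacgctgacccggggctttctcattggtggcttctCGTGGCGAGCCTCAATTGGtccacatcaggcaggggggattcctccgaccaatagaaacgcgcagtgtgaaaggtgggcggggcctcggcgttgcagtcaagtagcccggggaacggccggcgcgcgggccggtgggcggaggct
Dnajc3: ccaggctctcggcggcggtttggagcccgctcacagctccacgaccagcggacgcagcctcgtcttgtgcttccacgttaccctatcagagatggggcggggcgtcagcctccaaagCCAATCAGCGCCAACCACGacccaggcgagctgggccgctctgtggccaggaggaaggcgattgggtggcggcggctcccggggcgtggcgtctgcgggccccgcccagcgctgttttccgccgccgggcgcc
The match begins at base -43 in Hspa5, -145 in Creld2 and -133 in Dnajc3, and in Creld2 it lies on the opposite strand. Of 33469 rat promoters, 22 held a match (0.0657%), and 7 of these belonged to the 29 list members that had a promoter in the table. The 7 were Creld2, Dnajc3, Hspa5, Hsp90b1, Xbp1, Calr and Canx, whose differences ran from 0.0019 to 0.55 with a median of 0.17, all on the higher side. The 22 members without a match had a median of 0.04, with 12 on the higher side, and Sdf2l1 was one of them. They mix ER genes, from Sdf2l1 at 0.72 to Hyou1 at -0.07, with ATF4 branch genes, from Mthfd2 at 0.32 to Slc7a5 at -0.28. These medians therefore compare unlike sets of genes, and whether the motif plays a part was not tested. A match describes the sequence and is not evidence that a factor bound there.

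Hspa5, Sdf2l1 and Creld2 had higher means in both early sham runs than in either later one. Hspa5 averaged 11.23 ± 0.27 (SD, log2 intensity) on Sham 1 to 5, 11.63 ± 0.22 on Sham 6 to 10, 10.62 ± 0.06 on Sham 11 to 15 and 10.63 ± 0.06 on Sham 16 to 20, with n = 5 in each run. Sdf2l1 averaged 7.18 ± 0.24, 7.90 ± 0.10, 6.69 ± 0.17 and 6.65 ± 0.06 in the same order of runs, and Creld2 7.88 ± 0.36, 8.44 ± 0.26, 7.18 ± 0.17 and 7.33 ± 0.20. For Hspa5, each of the 10 arrays of numbers 1 to 10 was above each of the 10 arrays of numbers 11 to 20, whose highest value was 1667.2 intensity units. Over the whole list, 17 of 32 members had their highest run mean in Sham 6 to 10, 9 in Sham 16 to 20, 3 in Sham 11 to 15 and 3 in Sham 1 to 5. These comparisons with later runs are values only and were not tested.

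**Figure D2:**
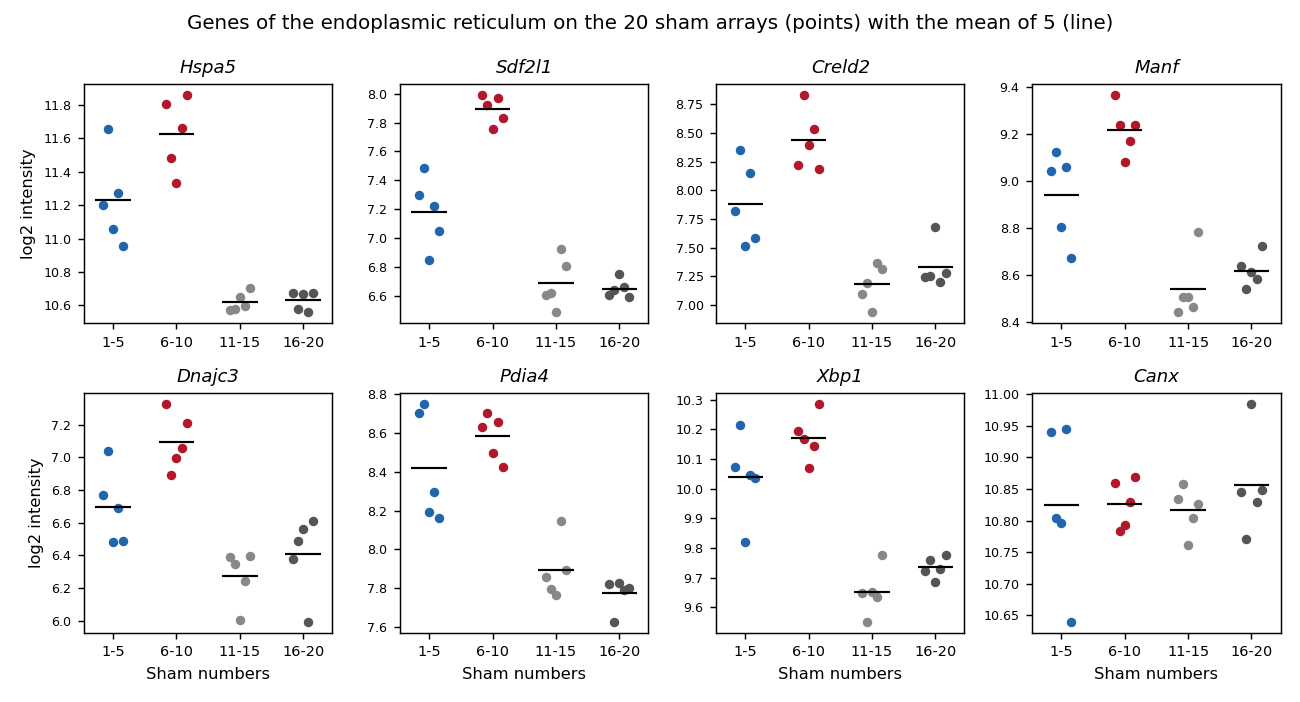
Log2 intensity of 8 ER genes on each of the 20 sham arrays by number run, with a line at the mean of 5; each panel has its own y range. In 7 panels Sham 6-10 has the highest mean and Sham 1-5 the next, while Canx shows no such order.

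Serp1 and Ero1b, ER genes outside the list that were chosen after their values were seen, also rose. Serp1, a small protein of the translocon, read 1110.2 to 1240.8 on Sham 6 to 10 and 887.1 to 1079.4 on Sham 1 to 5 (0.22 ± 0.05, limma adjusted p = 0.027), a call lost without Sham 3, 5, 6 or 10 (adjusted p up to 0.079), with median centring, with no mean trend and with the 10 arrays fitted alone. Ero1b, the oxidase that recharges disulfide isomerases, read 157.5 to 185.3 on Sham 6 to 10 and 97.8 to 134.9 on Sham 1 to 5 (difference 0.54), without overlap; the call was lost without Sham 3, 5, 6 or 10 (up to 0.075), with no filter, with no mean trend and with all 40 arrays. Translocon and signal peptide machinery genes were gathered by symbol after the values were seen, so their count is a description. Of 29 measured, 3 rose (Serp1, Selenok and Sec62) and none fell, beside 103 of 10304 named genes that rose. Of the 29, 19 were on the higher side (median 0.09), beside 5013 of the 10304. Selenok lost its call without Sham 2, 5, 8 or 10 (limma adjusted p up to 0.068). Sec62 lost its call without Sham 1, 2, 3, 6, 7 or 8 (up to 0.079).

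In Sham 6 to 10, 4 of 16 astrocyte markers rose: Aqp4, Slc4a4, S100b and Slc1a2. Aqp4, the water channel of astrocyte endfeet, read 2136.3, 1589.1, 1669.6, 1639.9 and 2046.3 on Sham 6 to Sham 10, against 1116.1, 1111.1, 1451.6, 1421.1 and 1455.6 on Sham 1 to Sham 5. The groups did not overlap (0.47 ± 0.10, limma adjusted p = 0.014), and the call held whichever array was left out. A further Aqp4 probe set gave 0.46 (adjusted p = 0.087) and another 0.12 (0.56). Slc4a4, a sodium bicarbonate cotransporter, rose by 0.37 ± 0.08 (limma adjusted p = 0.019), with 504.4 to 678.2 on Sham 6 to 10 and 405.2 to 488.2 on Sham 1 to 5; without Sham 6 its adjusted p was 0.056, with no filter 0.054, and a second Slc4a4 probe set was at 0.01 (0.97). S100b, a calcium-binding protein, rose by 0.41 ± 0.11 (limma adjusted p = 0.043), with 604.3 to 909.1 on Sham 6 to 10 and 517.7 to 602.4 on Sham 1 to 5, a call lost without any array but Sham 7 or 9 (adjusted p up to 0.12). The S100b call was also lost with no filter (0.12), with no mean trend and with the 10 arrays fitted alone. Slc1a2, a glutamate transporter, was called higher on a dim probe set (29.1 to 74.2 on Sham 6 to 10, 24.2 to 37.4 on Sham 1 to 5; 0.85 ± 0.21, limma adjusted p = 0.034), and lost its call without any array but Sham 4, 7 or 9 (up to 0.099). In bulk tissue, more cells of a type and more RNA per cell cannot be told apart.

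None of the 16 markers fell, with 14 on the higher side and a median of 0.21. The number called higher was 0 to 5 across the alternative settings, and with no filter on dim probe sets Aqp4 had an adjusted p of 0.054. Gfap, the intermediate filament of astrocytes, was at 0.41 ± 0.17 and did not pass (limma adjusted p = 0.21), with 418.1 to 773.5 on Sham 6 to 10 and 292.6 to 533.9 on Sham 1 to 5. Slc1a3 at 0.03 and Aldh1l1 at -0.12 did not pass either. The summed linear intensity of the 16 markers ran from 18930 to 22700 on Sham 6 to 10 and from 17600 to 18880 on Sham 1 to 5, narrowly without overlap. On the log2 scale their mean level did overlap, at 9.12 to 9.51 on Sham 6 to 10 and 8.96 to 9.16 on Sham 1 to 5. No marker was below the floor on all arrays.

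Of 12 microglial markers 1 passed. Lyz2, a lysozyme of macrophages and microglia, read 217.6, 160.1, 106.3, 158.1 and 159.9 on Sham 6 to Sham 10, against 98.0, 93.2, 93.9, 108.2 and 107.1 on Sham 1 to Sham 5. Sham 8 lay within the range of Sham 1 to 5 (0.65 ± 0.15, limma adjusted p = 0.021), and the call was lost without Sham 2, 6 or 10 (up to 0.060) and with no filter (0.068). All 12 differences were above zero, beside 5013 of 10304 named genes, with a median of 0.30, from Mrc1 at 0.15 to Lyz2 at 0.65. Csf1r at 0.26, P2ry12 at 0.45 and Ctss at 0.48 did not pass. The summed markers ran from 1077 to 1610 on Sham 6 to 10 and from 825.1 to 1111 on Sham 1 to 5, with overlap.

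Other cell types showed few calls. Bcas1, expressed by oligodendrocytes that are starting to myelinate, rose by 0.46 ± 0.11 (limma adjusted p = 0.028) with 406.0 to 543.4 on Sham 6 to 10 and 269.3 to 385.2 on Sham 1 to 5, and was lost without Sham 2, 3, 4 or 6 (up to 0.079). Bcas1 also lost its call with no filter (0.088) and with no mean trend. It was the only one of 14 oligodendrocyte markers to pass; Mbp, a main myelin protein, was at 0.64 without passing (adjusted p = 0.13). Of 24 vessel markers none passed (median 0.04), and of 17 neuron markers Syt1 alone rose (median 0.02). Col1a1, a collagen of the meninges, fell by 0.41 (limma adjusted p = 0.027; lost without Sham 1, 3, 5, 6 or 10, up to 0.068), the only call among 15 meningeal markers; a second Col1a1 probe set was at -0.09 (0.71). The 8 choroid plexus markers summed to 336.3 to 5577 on Sham 6 to 10 and 3754 to 5837 on Sham 1 to 5, and the 4 blood markers to 3578 to 5021 on Sham 6 to 10 and 4819 to 5845 on Sham 1 to 5, with no call in either list. The part of cell composition or dissection in the gene differences was not tested.

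**Figure D3:**
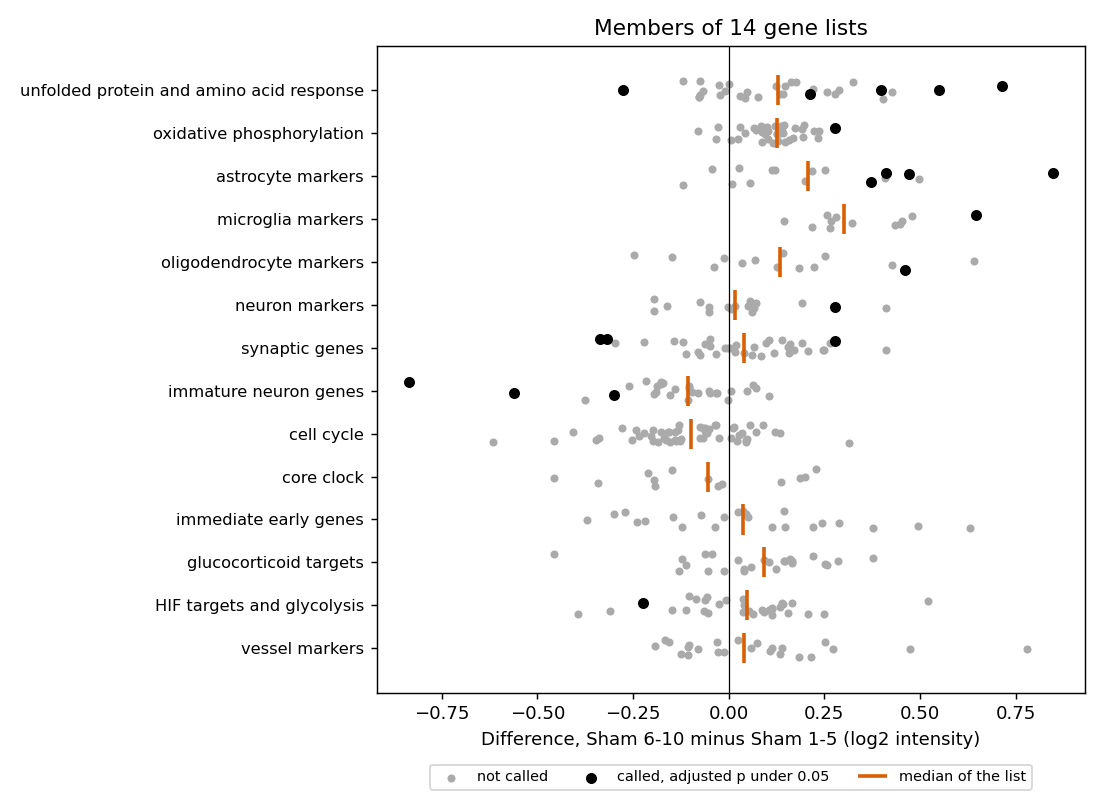
Difference between Sham 6-10 and Sham 1-5 (x axis, log2 intensity) for each measured member of 14 lists (rows), with called genes in black and the list median in orange. Microglia markers all lie right of zero, oxidative phosphorylation genes nearly all, and most immature neuron genes lie left.

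Of 29 immature neuron genes 3 fell in Sham 6 to 10: Sox11, Dpysl3 and Dpysl5. Sox11, a transcription factor of newly formed neurons, read 174.6, 201.9, 212.8, 206.9 and 227.5 on Sham 6 to Sham 10, against 322.0, 338.6, 266.8, 318.2 and 267.8 on Sham 1 to Sham 5. There was no overlap (-0.56 ± 0.09, limma adjusted p = 0.0019). Dpysl3, a collapsin response mediator that shapes growth cones, read 671.9, 447.2, 450.4, 638.0 and 626.1 on Sham 6 to Sham 10, against 1124.9, 1157.5, 1042.5, 959.2 and 752.8 on Sham 1 to Sham 5. Every value was below the lowest of Sham 1 to 5 (-0.84 ± 0.15, limma adjusted p = 0.0044). Its relative Dpysl5 fell by 0.30 ± 0.07 (limma adjusted p = 0.019), with 1133.6 to 1528.5 on Sham 6 to 10 and 1595.0 to 1737.8 on Sham 1 to 5, and lost its call without Sham 2, 6 or 10 (up to 0.058). The Dpysl5 call was also lost with no filter, with no mean trend, with the 10 arrays fitted alone and with all 40 arrays (up to 0.067). Calls of Sox11 and Dpysl3 held whichever array was left out.

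None of the 29 rose and 24 were on the lower side, with a median of -0.11; 2 to 3 fell across the alternative settings. Members that did not pass include Dcx, doublecortin itself, at -0.18 (adjusted p = 0.39), Neurod2 at -0.37 (0.13), Gap43 at -0.05 and Stmn2 at 0.01. None of 54 cell cycle genes passed, and 39 were on the lower side (median -0.10). Axon guidance and growth cone families were gathered by symbol after the values were seen, so their count is a description. Of 57 measured, 9 fell and none rose, beside 149 of 10304 named genes that fell. The 9 include Dpysl3 and Dpysl5, already counted above among the immature neuron genes. Of the 57, 42 were on the lower side (median -0.06), beside 5291 of the 10304. The gene with the smallest p of all, L1cam, a cell adhesion molecule of axons, belongs here. It read 955.2, 978.2, 968.4, 1054.8 and 907.3 on Sham 6 to Sham 10, against 1204.3, 1330.9, 1310.2, 1190.7 and 1282.1 on Sham 1 to Sham 5 (-0.38 ± 0.05, limma adjusted p = 0.0013), without overlap. Nav2, which guides neurite growth, fell by 0.61 ± 0.10 (limma adjusted p = 0.0044), with 113.3 to 161.9 on Sham 6 to 10 and 186.2 to 238.2 on Sham 1 to 5. Sema6a, a guidance ligand, fell by 0.59 on 1 probe set (limma adjusted p = 0.012; 0.051 with no filter), and its other probe sets were at -0.02 (0.93), -0.30 (0.54) and 0.06 (0.86). Fscn1, which bundles actin in growth cones, fell by 0.67 (0.018; without Sham 3 it was 0.050 and with no filter 0.068), with other probe sets at -0.50 (0.039) and -0.18 (0.61). Calls of L1cam, Nav2 and Sema6a held whichever array was left out.

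**Figure D4:**
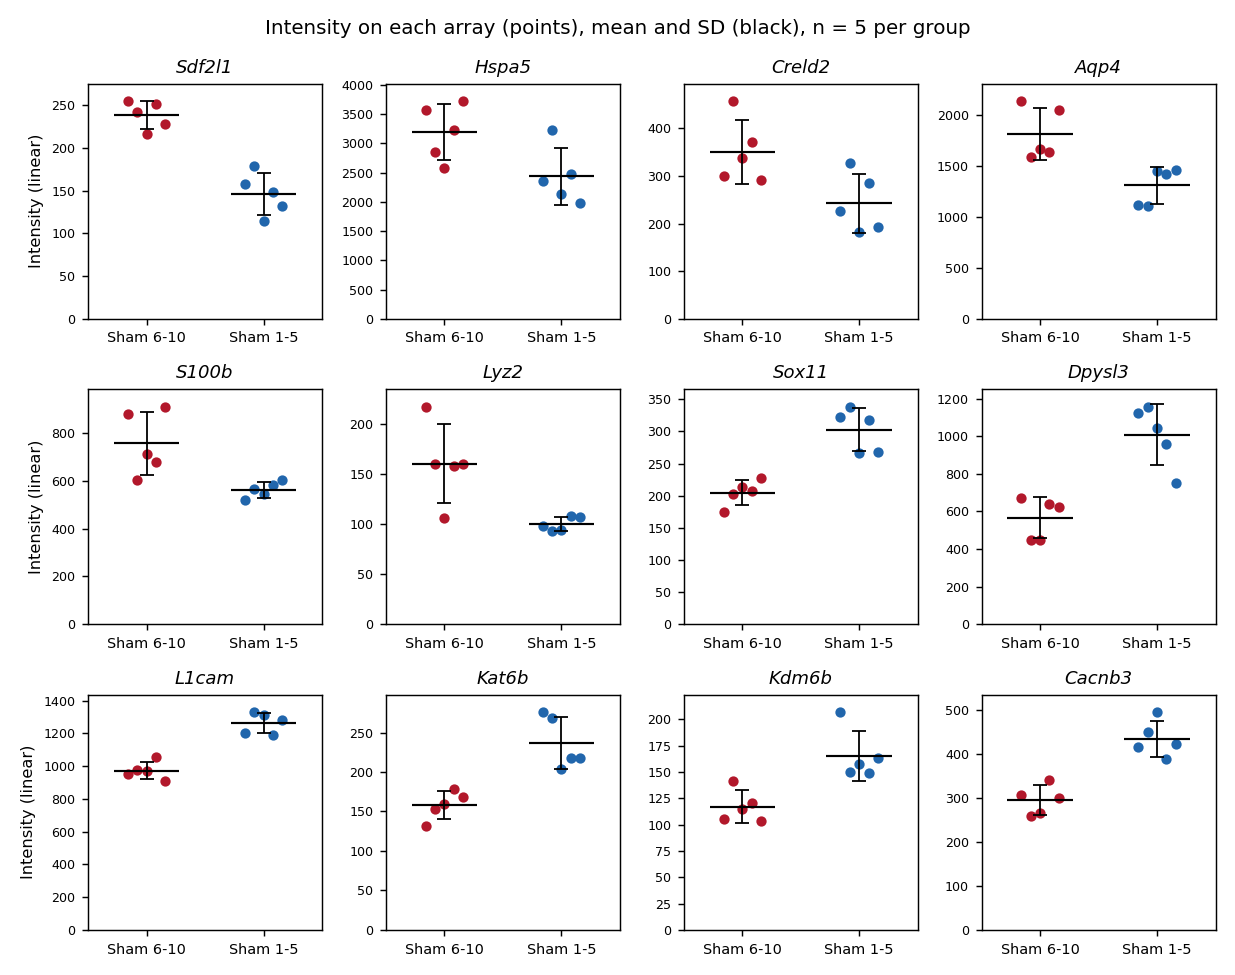
Intensity (linear) of 12 genes on each array of Sham 6-10 (red) and Sham 1-5 (blue), with the mean and SD in black, n = 5 each. The groups overlap in Hspa5, Creld2 and Lyz2 and are separate in the other 9 genes.

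Of 117 chromatin genes, gathered by symbol after the values were seen, 11 fell and none rose, beside 149 of 10304 named genes that fell. Kat6b, a histone acetyltransferase, read 132.1, 153.0, 159.4, 178.9 and 168.9 on Sham 6 to Sham 10, against 275.9, 268.9, 204.3, 217.8 and 218.3 on Sham 1 to Sham 5. The groups were separate (-0.58 ± 0.10, limma adjusted p = 0.0044), and a second Kat6b probe set fell by 0.43 (adjusted p = 0.010) and another, dimmer one was at -0.23 (0.47). Kdm6b, a histone demethylase chosen after its values were seen, read 102.9 to 141.7 on Sham 6 to 10 and 148.7 to 206.8 on Sham 1 to 5 (-0.50 ± 0.10, limma adjusted p = 0.010). Of the 117 genes, 87 were on the lower side, with a median of -0.08. Beside Kat6b and Kdm6b, the 11 were Kdm5b, Chd3, Kmt5a, Carm1, Kdm1a, Smarcd3, Tet3, Kat6a and Kmt2a, at -0.27 to -0.52. Calls of Kat6b, Kdm6b and Kdm5b held whichever array was left out and under every other alternative run. Those of Chd3 and Kmt5a also held when any array was left out. The Chd3 call was lost with all 40 arrays (limma adjusted p = 0.12) and the Kmt5a call with the 10 fitted alone (0.053). That of Kmt2a was lost without Sham 1, 2, 5, 6, 8 or 10 (adjusted p up to 0.13). Carm1, Kdm1a, Smarcd3, Tet3 and Kat6a each lost their call without Sham 10 and without at least 1 other array. With 1 array left out, their highest limma adjusted p was 0.060, 0.062, 0.081, 0.096 and 0.090 in that order.

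Of 40 genes with hnRNP and SR-related symbols, again gathered after the values were seen, 7 fell and none rose (median -0.09). The share over all named genes was 149 of 10304 that fell. The 7 were Hnrnpl, Scaf1, Safb, Sart1, Srpk1, Scaf8 and Hnrnpu. Calls of Hnrnpl and Safb held whichever array was left out. Those of Sart1 (limma adjusted p up to 0.068), Srpk1 (0.075), Scaf8 (0.079) and Hnrnpu (0.14) were each lost without several arrays. The largest fall of any called gene was that of Scaf1, an SR-related protein that binds RNA polymerase, on a dim probe set: 24.1, 20.2, 31.2, 29.0 and 24.3 on Sham 6 to Sham 10, against 78.4, 58.4, 63.8, 27.2 and 69.3 on Sham 1 to Sham 5. Sham 4 lay within the range of Sham 6 to 10 (-1.14 ± 0.22, limma adjusted p = 0.010). The Scaf1 call held whichever array was left out but not with all 40 arrays in the fit (0.074), and the difference was -0.63 with a pseudocount of 32. Lmnb2, a lamin of the nuclear envelope, fell by 0.61 ± 0.13 (limma adjusted p = 0.015), with 67.0 to 98.4 on Sham 6 to 10 and 118.6 to 130.1 on Sham 1 to 5. Mis18a, needed to mark centromeres, fell by 0.89 ± 0.23 (limma adjusted p = 0.038) with 54.2 to 82.6 on Sham 6 to 10 and 55.5 to 214.8 on Sham 1 to 5, and its call was lost without any array but Sham 5, 7 or 9 (up to 0.0998).

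Among the remaining largest falls were C8h11orf54, at 129.3 to 226.9 on Sham 6 to 10 and 254.4 to 319.6 on Sham 1 to 5 (-0.74 ± 0.12, limma adjusted p = 0.0022; a second probe set was at -0.02, adjusted p = 0.96), Mapk7, the kinase ERK5, at -0.77 (0.027; lost without Sham 2, 5, 6 or 10, up to 0.075) and Alox15, a lipoxygenase, at -0.69 (0.030; lost without Sham 1, 5, 6, 8 or 10, up to 0.079). Among the largest rises, Sox17, a transcription factor of endothelial cells, read 87.2 to 101.0 on Sham 6 to 10 and 40.9 to 69.9 on Sham 1 to 5 (0.77 ± 0.14, limma adjusted p = 0.0083). Slc3a1, a subunit of the cystine and dibasic amino acid transporter, read 500.0 to 620.9 on Sham 6 to 10 and 305.4 to 436.2 on Sham 1 to 5 (0.59 ± 0.11, adjusted p = 0.0057). Sorcs1, a sorting receptor of neurons, rose by 0.65 ± 0.12 (limma adjusted p = 0.0072), with 204.7 to 342.7 on Sham 6 to 10 and 152.9 to 240.3 on Sham 1 to 5, so Sham 6 lay within the other range. Ifi27, an interferon-inducible gene, rose by 0.64 ± 0.13 (limma adjusted p = 0.011; 0.051 with no filter and 0.053 with the 10 arrays alone). Calls of C8h11orf54, Sox17, Slc3a1, Sorcs1 and Ifi27 held whichever array was left out. With no filter, the Mapk7 and Alox15 calls were also lost (limma adjusted p = 0.063 and 0.10).

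Of 41 oxidative phosphorylation genes, which serve mitochondrial respiration, 38 were on the higher side (median 0.13), beside 5013 of 10304 named genes. Of the 41, 1 rose, none fell and 40 did not pass, and 0 to 4 rose across the alternative settings. The member that rose was Sdhd, an anchor subunit of complex II, at 1272.9 to 1447.8 on Sham 6 to 10 and 918.2 to 1246.3 on Sham 1 to 5 (0.28 ± 0.06, limma adjusted p = 0.023; lost without Sham 2, 6 or 10, up to 0.068; a second probe set was at 0.23, adjusted p = 0.060). Uqcr11, a complex III subunit outside the list that was picked after its values were seen, read 1262.9 to 1521.4 on Sham 6 to 10 and 1091.2 to 1208.6 on Sham 1 to 5 (0.34), and its call held whichever array was left out. Across the 4 sham runs, 37 of the 41 members had their lowest run mean in Sham 1 to 5. In glycolysis, Hk1, the main brain hexokinase, fell by 0.22 ± 0.05 (limma adjusted p = 0.022), with 771.2 to 882.5 on Sham 6 to 10 and 919.3 to 1086.5 on Sham 1 to 5; without Sham 3 or 6 it did not pass (up to 0.059). The Hk1 call was also lost with no mean trend, with the 10 arrays fitted alone (0.080) and with all 40 arrays (0.051). Hk1 was the only call among 32 hypoxia-inducible factor targets and glycolytic enzymes (median 0.05).

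Few synaptic genes passed. Of 37 measured, 1 rose, 2 fell and 34 did not pass, with a median of 0.04. Syn1, which coats synaptic vesicles, fell by 0.32 (limma adjusted p = 0.041) and Grin1, the obligatory NMDA receptor subunit, by 0.34 (0.043), while Syt1, the calcium sensor of release, rose by 0.28 (0.0497). All 3 were close to the threshold: the Syn1 call was lost without any array but Sham 4 (up to 0.103), that of Grin1 without any but Sham 9 (up to 0.085), and that of Syt1 without Sham 1, 2, 4, 5, 6 or 10 (up to 0.14). Without Sham 16 to 20, Grin1 (0.054) and Syt1 (0.051) did not pass. With no filter, with no mean trend, with the 10 arrays fitted alone and with all 40 arrays, none of the 3 passed. Syt1 lost its call in 9 of 12 alternatives other than leaving out 1 array (up to 0.13). A second, dimmer Grin1 probe set was at 0.39 (0.27) and a second Syn1 probe set at -0.22 (0.069), and neither passed.

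Genes that follow the time of day, stress hormones or neuronal activity gave no calls on the probe set that stands for each gene. Of 13 core clock genes none passed in either direction, nor did any of 10 clock output genes (medians -0.05 and 0.03). Per2 read 114.0 to 134.3 on Sham 6 to 10 and 125.5 to 158.2 on Sham 1 to 5 (-0.21 ± 0.08, limma adjusted p = 0.19). Dbp was at -0.04 ± 0.12, Nr1d1 at 0.19 ± 0.15 and Bmal1 at -0.03 ± 0.07, and none passed. Cry1, a repressor of the clock, came nearest, at 106.8 to 127.0 on Sham 6 to 10 and 132.5 to 177.4 on Sham 1 to 5, without overlap (-0.34 ± 0.09, limma adjusted p = 0.054). Of 25 glucocorticoid targets none passed, with Fkbp5 at -0.12 ± 0.11, Sgk1 at 0.04 ± 0.07 and Tsc22d3 at -0.01 ± 0.06. Among 23 immediate early genes none passed. Fos, a marker of recent neuronal activity, read 61.0, 46.1, 35.2, 36.3 and 86.8 on Sham 6 to Sham 10, against 36.6, 37.1, 24.5, 33.3 and 31.8 on Sham 1 to Sham 5. Its difference was 0.63 ± 0.22 with the groups overlapping (limma adjusted p = 0.12), and Arc was at -0.10 ± 0.18. The hypoxia targets Vegfa (0.09 ± 0.09), Slc2a1 (0.13 ± 0.08) and Ddit4 (0.09 ± 0.08) did not pass, nor did the cold-inducible Rbm3 (0.01 ± 0.06) or the heat shock gene Hspa1a (0.43 ± 0.20). Cirbp, also cold-inducible, was at -0.24 ± 0.14 on its brightest probe set without passing, while a dimmer one fell by 0.28 (limma adjusted p = 0.044) and another was at -0.18 (0.24). A gene that did not pass is not thereby shown to be equal in the 2 groups.

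The same number runs of the preconditioned group give a second comparison that shares no array with the first. PC 6 to 10 against PC 1 to 5 gave 108 probe sets higher (0.58%) and 161 lower (0.864%) in PC 6 to 10. Of the 421 probe sets called in sham, 387 (91.9%) had the same sign in PC, against 65.2% of all probe sets tested. The called-higher sham probe sets had a median of 0.34 in sham and 0.19 in PC, and the called-lower ones -0.37 in sham and -0.25 in PC. Both comparisons called 53 probe sets in the same direction, 15 higher and 38 lower, which is 12.6% of the sham calls and 19.7% of the PC calls. Without PC 5 and PC 6, 385 had the same sign and 30 of 169 PC calls were shared with sham. Slc3a1 was higher by 0.59 in sham and 0.71 in PC, Kat6b lower by 0.58 and 0.61, L1cam lower by 0.38 and 0.33, Lyz2 higher by 0.65 and 0.79, and S100b higher by 0.41 and 0.42; each passed in both. Without PC 5 and PC 6, L1cam (0.057) and S100b (0.15) no longer passed in PC. Sdf2l1 and Hspa5 were higher by 0.42 and 0.33 in PC without passing there (limma adjusted p = 0.079 and 0.11), and Creld2 was at -0.07. Since runs of the same number may share handling, what the shared differences come from was not tested.

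**Figure D5:**
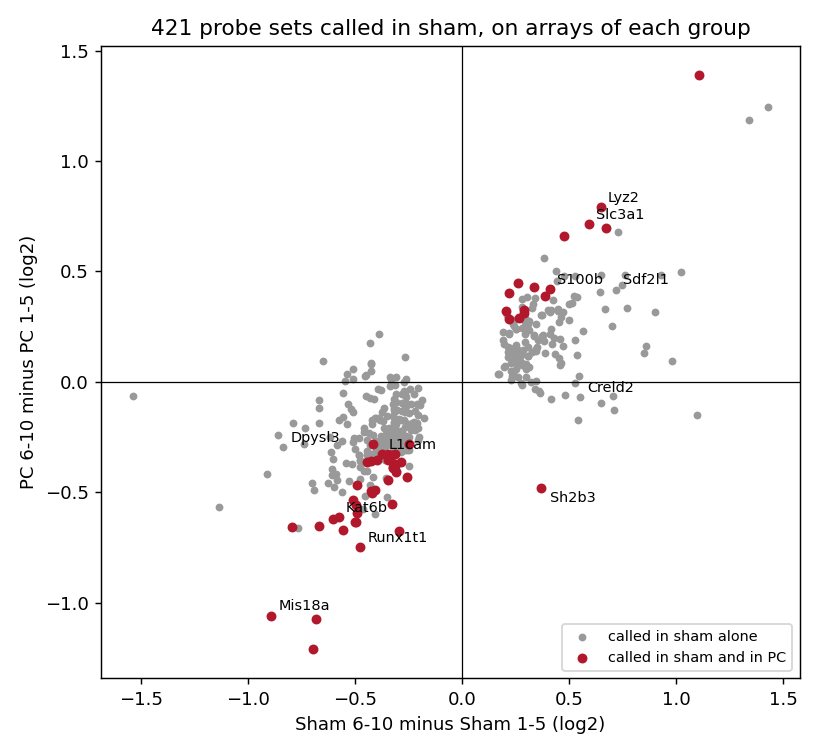
Difference between numbers 6-10 and 1-5 in sham (x axis) and in PC (y axis), log2 intensity, for the 421 probe sets called in sham; red points were also called in PC. Points fill the lower left and upper right, and Sh2b3 is the red point at the lower right.

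Where the change between runs was tested for a difference between sham and PC, 10 probe sets passed (0.0537%). Sh2b3, an adaptor protein of cytokine signalling, was the only one called in both groups with opposite signs: 0.37 ± 0.09 in sham and -0.48 ± 0.10 in PC (limma adjusted p = 0.00065 for the difference). Its sham call was lost without Sham 1, 2, 3, 4, 6, 8, 9 or 10 (adjusted p up to 0.093), without Sham 16 to 20 (0.056), with no filter and with the 10 arrays alone. It read 148.4, 131.7, 127.3, 131.6 and 130.8 on Sham 6 to Sham 10, against 104.3, 105.2, 89.3, 92.2 and 132.3 on Sham 1 to Sham 5. The other named genes passed in PC and not in sham. Ddit4, a hypoxia target, was at 0.09 in sham and -1.02 in PC, Depp1 at 0.02 and -1.88, Vegfa at 0.09 and -0.51, Kdm3a at -0.09 and -0.88, and Txnip at -0.03 in sham and 0.81 in PC. Without PC 5 and PC 6, 13 probe sets passed the test of the difference, and all 6 genes named here were among them (adjusted p 1.5e-07 to 0.0099).

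Later sham arrays lay on either side of the change. For 270 of the 421 called probe sets the mean of Sham 11 to 15 was on the side of Sham 6 to 10, taking the midpoint of the 2 groups, and for 223 the mean of Sham 16 to 20 was. Sox11 averaged 8.23 ± 0.16 (SD, log2 intensity) on Sham 1 to 5, 7.67 ± 0.14 on Sham 6 to 10, 7.86 ± 0.06 on Sham 11 to 15 and 7.43 ± 0.17 on Sham 16 to 20. Kat6b stayed low after the first run, at 7.88 ± 0.20, 7.30 ± 0.17, 7.28 ± 0.14 and 7.18 ± 0.13 in the same order. Aqp4 stayed high, at 10.35 ± 0.21, 10.82 ± 0.20, 10.72 ± 0.12 and 10.83 ± 0.17. By contrast C8h11orf54 was low in 1 run alone, at 8.11 ± 0.13, 7.37 ± 0.33, 8.06 ± 0.09 and 8.12 ± 0.19. These patterns over runs are descriptions with no test.

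Features around the start sites of called genes are given as a description, without a test. The 300-base RefSeq promoters of genes called higher had a median GC content of 58.2% and 16 CpG dinucleotides, those of genes called lower 65.0% and 26, and those of all named genes 61.7% and 22; promoters were found for 85.4%, 84.6% and 83.8% of these genes. Median genomic spans were 22.6 kb for genes called higher, 30.4 kb for genes called lower and 25.4 kb for all named genes. Called genes were also brighter than average, with a median level of 8.85 on the log2 scale for those higher and 7.95 for those lower, against 7.48 for all named genes, and how far brightness shapes which genes are called was not tested.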

How the data were processed

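Total RNA of rat cerebral cortex was measured on 40 one-colour Affymetrix arrays. The deposited values are linear intensities with 1 value for each probe set on each array, and which software and scaling made them is not given in the labels. Arrays, lists and members were chosen with earlier results of these data known. After removal of 57 control probe sets, intensities below 16 were set to 16 and log2 values taken, and probe sets with a mean over all 40 arrays at or above the 40th percentile (intensity 31.9) were kept: 18625 of 31042. Of these, 14273 had 1 gene in the platform annotation, 309 several and 4043 none. A gene stands by its brightest kept probe set; of 123 other kept probe sets of called genes, 100 had the same sign. limma 3.58.1 in R 4.3.3 (lmFit, eBayes with a mean trend) was fitted to the 20 sham arrays as 4 group means, and p-values were Benjamini-Hochberg adjusted over 18625. The PC comparison used the 20 PC arrays, and the difference between comparisons all 40. The fitting script was tested on simulated data. Arrays give no depth, so their number limits the precision. The named genes were the 15 largest rises and falls among called genes, up to 4 called members of each of 30 lists, and a set given whatever its result; not all are printed, and genes chosen otherwise are marked. Alternatives covered normalization, floor, filter, variance model, arrays in the fit, sex and leaving out each array.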

Additional observations from a re-analysis of the deposited data

Results flagged for a closer look

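In 6 of 142 groups of 5 arrays, for genes named by the rule, 1 array stood far from the other 4; chance alone flags about 1 group in 20. Intensity was 351.3 for Fcrl2 on Sham 10, against 245.6 to 263.1 on the other arrays of its group, 32.5 for B3gnt7 on Sham 6 against 47.2 to 51.6, and 543.4 for Bcas1 on Sham 6 against 406.0 to 425.5. It was 28.5 for Tbccd1 on Sham 1 against 62.7 to 82.5, 27.2 for Scaf1 on Sham 4 against 58.4 to 78.4, and 376.8 for Sgk1 on Sham 5 against 470.0 to 504.4. Without Sham 10 the Fcrl2 call was lost (limma adjusted p = 0.11), without Sham 6 those of B3gnt7 (0.068) and Bcas1 (0.079), whereas Scaf1 stayed called.

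The change between runs differed between sham and PC for 10 probe sets by the limma test of the difference itself. The change in sham minus that in PC was 1.11 for Ddit4 (adjusted p = 2.1e-08), 1.90 for Depp1 (0.00063), 0.85 for Sh2b3 (0.00065), 0.80 for Kdm3a (0.00065), 0.59 for Vegfa (0.026) and -0.85 for Txnip (0.026). For the 4 probe sets without a single gene name it was 1.55 (adjusted p = 6.8e-09), 0.83 (0.015), 0.50 (0.020) and -0.57 (0.026). The last of these fell in sham by 0.51 and was at 0.06 in PC.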

How the results depend on the processing

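Against 421 calls (167 higher, 254 lower), 219 (78 and 141) were made with no filter on dim probe sets, 231 (75 and 156) with no mean trend in the variance, 154 (64 and 90) when the 10 arrays were fitted alone and 234 (83 and 151) with all 40 arrays in the fit. Quantile normalization, median centring, other floors, a stricter filter, a robust fit, sex as a covariate, and, added after seeing the data, leaving out Sham 16 to 20 kept all 3 counts within 1.5 times. Leaving out each array gave 154 to 473 calls, 55 to 181 higher and 99 to 299 lower. The PC comparison had 269 calls, 156 with no filter, 169 without PC 5 and PC 6, and 126 to 296 when 1 array was left out; the difference between comparisons had 10, and 6 to 13 when 1 array was left out. Of the 252 called genes, 138 lost their call with no filter and 126 with no mean trend. With the 10 arrays fitted alone 179 lost it, and with all 40 arrays 122. These include genes described above by left-out arrays alone. The causes were not tested. Of the 46 called genes named by the rule none changed sign, 10 stayed called under every alternative (Sox17, Sdf2l1, Sorcs1, Slc3a1, Dpysl3, C8h11orf54, Nav2, Lmnb2, Kat6b and Sox11), and 16 whenever 1 array was left out. Of 25 named genes not called, Cry1 alone was called under some alternative. No paired analysis was possible because Sham 6 to 10 and Sham 1 to 5 share no sample number. Dim probe sets, such as those of Scaf1 and Slc1a2, lie close to the floor, where differences are least certain.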

Other observations

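Ttr, the thyroid hormone carrier made by the choroid plexus, read 3471.9, 5078.2, 2748.9, 62.4 and 3230.8 on Sham 6 to Sham 10, against 5270.7, 5203.9, 3356.3, 4281.8 and 4297.9 on Sham 1 to Sham 5. Sham 9 alone was low, and the difference of -1.49 did not pass (limma adjusted p = 0.27). Ttr was chosen after its values were seen.

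Thra, a thyroid hormone receptor, fell by 0.27 ± 0.07 (limma adjusted p = 0.043), with 523.9 to 701.0 on Sham 6 to 10 and 618.6 to 766.5 on Sham 1 to 5, and was the only call among 13 thyroid hormone genes. Without any array but Sham 5 or 8 it did not pass (up to 0.12), nor without Sham 16 to 20 (0.061), and a second Thra probe set was at -0.28 (0.10). The Thra call was also lost with median centring, with no filter, with no mean trend, with the 10 arrays fitted alone and with all 40 arrays (0.17). Of 28 genes of cholesterol and lipid synthesis, 29 of ribosomes and translation, 31 of fasting and FOXO, and 19 of vessel growth, none passed in either direction.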
